A study of Mus musculus with 6 samples.

Results

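The genes described here carry out DNA replication: they mark and license origins, unwind and copy the DNA at the fork, join the copied fragments and supply nucleotides. The group holds 45 genes, chosen by symbol from a list of replication factors, and each was found by its Ensembl gene ID among the 52856 rows of the count table. All 45 passed the filter on low counts, among 14387 rows tested. The members fall into 9 roles: the origin recognition complex (6 genes), the licensing loaders Cdc6 and Cdt1 with the inhibitor Gmnn (3 genes), the MCM2-7 helicase (6 genes), origin firing and assembly of the active helicase (8 genes), the sliding clamp and its loader (6 genes), replication protein A (3 genes), polymerases and primase (8 genes), Okazaki fragment maturation (2 genes) and nucleotide supply (3 genes).

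The measurements come from bulk RNA-seq of CD4+ T cells from the spleens of miPEP31-/- mice (miPEP31 KO, 3 libraries) and of wild-type mice (WT, 3 libraries). All mice were C57BL/6 and 8 weeks old, and all cells were cultured with serum and activated with antibodies to CD3 and CD28 for 48 hours, so no unstimulated sample enters the comparison. miPEP31 is a peptide encoded in the precursor transcript from which miR-31 is processed. The labels say neither how the allele was made nor whether the 3 libraries of a genotype came from separate mice. The p-values below therefore set the difference between genotypes against the spread between these libraries, which may in part be technical.

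Replication starts in separate steps that cells keep apart in time. In G1 phase the origin recognition complex, Cdc6 and Cdt1 load the MCM helicase onto DNA in an inactive form, which is called licensing. In S phase the kinase Cdc7 with its activator Dbf4, together with cyclin-dependent kinases, turns the loaded helicase on by adding Cdc45 and the GINS complex, and geminin (Gmnn) blocks any new loading. T cells leave quiescence after stimulation through the T cell receptor and CD28. The genes for many of these replication factors are known targets of the E2F transcription factors.

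Library totals were 23046153, 26295776 and 22865487 counts in the miPEP31 KO libraries and 23474669, 24018687 and 23398486 counts in the WT libraries. The members were well covered, with 286 to 12757 counts per gene and library. Mir31 had 0 counts in all 6 libraries, so the table does not check the genotype labels. The 8 CD4 T cell markers, Cd4 and Cd3e among them, summed to 1642 to 1858 CPM (counts scaled to library size, with trimmed mean of M-values or TMM factors) in the KO libraries and to 2122 to 2235 CPM in the WT libraries, and 6 of the 8 were lower in KO. The 6 B cell markers summed to 203 to 450 CPM in KO and to 167 to 235 CPM in WT, and the 2 CD8 markers to 15.9 to 36.9 CPM in KO and to 12.5 to 15.8 CPM in WT; 3 of the B cell markers and 1 of the CD8 markers were higher in KO. Dendritic cell markers summed to 12.03 to 13.05 CPM in KO and to 6.25 to 7.58 CPM in WT, with Clec9a at 0. The largest part was Zbtb46, with 10.6, 10.2 and 7.26 CPM in KO, against 5.41, 3.12 and 5.09 CPM in WT. NK cell markers summed to 21.4 to 30.3 CPM in KO and to 10.2 to 12.3 CPM in WT, mostly from Eomes and Klrk1. Ncr1 was at most 0.301 CPM in any library. Klrb1c had 0.302, 0.521 and 0.0859 CPM in KO, against 0.476, 1.18 and 0.218 CPM in WT. Erythroid markers summed to 0.603 to 0.859 CPM in KO and to 1.06 to 2.64 CPM in WT, and granulocyte markers to 0 to 0.223 CPM in KO and to 0.760 to 1.44 CPM in WT. The macrophage markers summed to less than 1 CPM in every library, with Adgre1 and Fcgr1 at 0, and S100a8, S100a9 and Elane of the granulocyte list were also at 0 throughout. In bulk samples such as these, fewer cells of a type and less RNA per cell cannot be told apart.

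The KO libraries stood apart from one another. KO replicate 1 had the highest level among the KO libraries in 39 of the 45 members, against 39.5% of all tested rows, and KO replicate 3 had the lowest in 33, against 38.0% of all rows. Among the WT libraries, WT replicate 3 was highest in 33 members, against 35.0% of all rows, and WT replicate 1 lowest in 36, against 34.7%. Summed over the members, the level was 6042, 5456 and 5089 CPM in KO replicates 1, 2 and 3, and 5891, 6277 and 6509 CPM in WT replicates 1, 2 and 3. The sums of the genotypes overlapped, because KO replicate 1 lay above WT replicate 1. B cell and CD8 markers ran the other way among the KO libraries: Ighm, the heavy chain of IgM, had 146, 196 and 347 CPM in KO replicates 1, 2 and 3, against 136, 116 and 159 CPM in the WT libraries. The part of other cells in the members' levels was not tested.

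**Figure D1:**
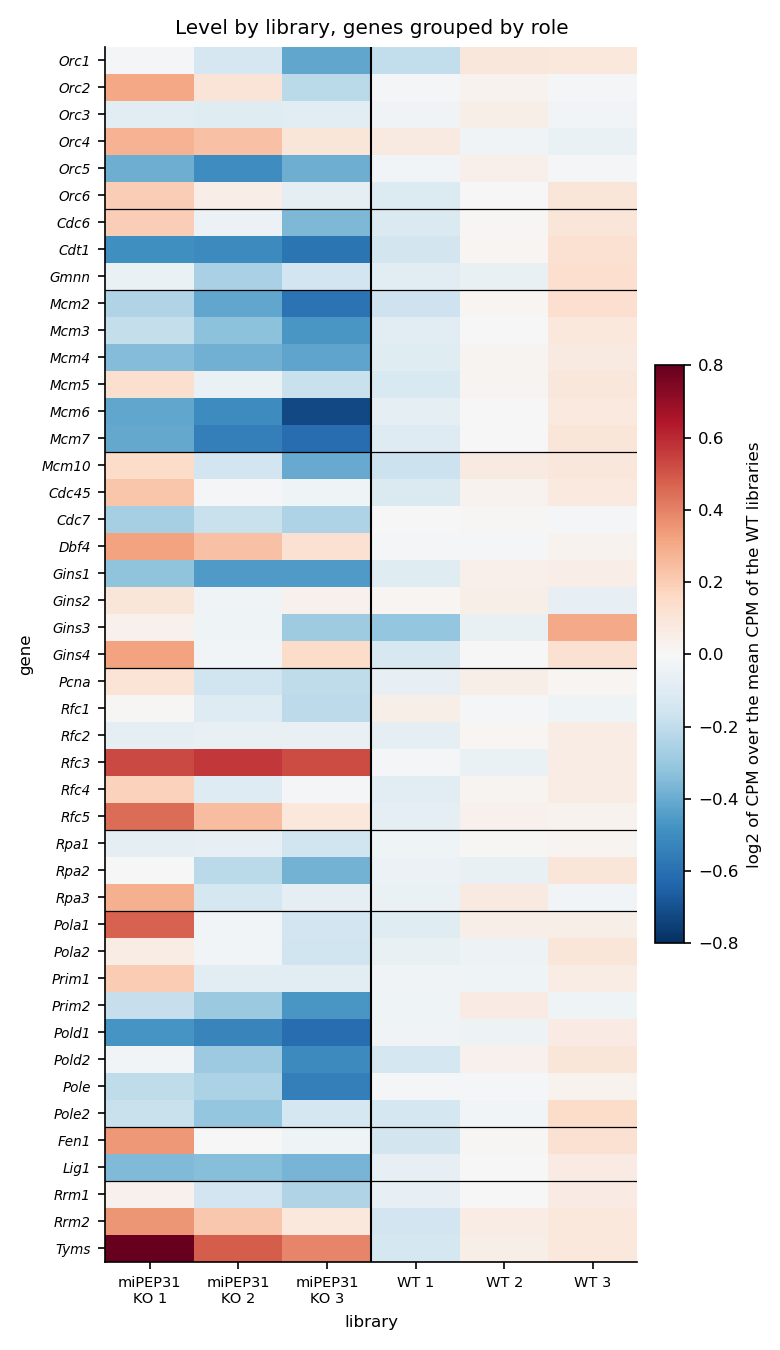
Level of each of the 45 members (rows, grouped by role with lines between roles) in the 3 miPEP31 KO and 3 WT libraries (columns), as log2 of CPM over the mean CPM of the WT libraries. Blue is below and red above the WT mean: Cdt1, Mcm6, Mcm7 and Pold1 are blue in all 3 KO libraries, Rfc3 and Tyms are red in all 3, and KO replicate 1 is the reddest KO column.

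Of the 45 members, 18 passed the test between the genotypes (edgeR quasi-likelihood test over all rows, adjusted p under 0.05), which is 40.0% of them; of all tested rows 6806, or 47.3%, passed. Among rows at least as abundant as the lowest member the share was 52.9%. Members higher in KO numbered 5 (11.1%), where 25.1% of all rows were higher, and members lower in KO numbered 13 (28.9%), where 22.2% of all rows were lower. The changes were small: log2 fold changes (miPEP31 KO over WT throughout) ran from -0.54 to 0.58, with a median of -0.09 against 0.01 for all rows. No member called reached a 2-fold change, which 13.8% of all rows did. The 3 KO libraries lay wholly above the 3 WT libraries in 5 members and wholly below in 15, so the genotypes did not overlap in 20 of 45; of all rows 59.1% did not overlap. The median size of the change, without its sign, was 0.17 for the members on the log2 scale and 0.34 for all rows. For rows at least as abundant as the lowest member it was 0.25. Without KO replicate 1 the members lower in KO numbered 17, and the other 4 were Pcna, Rpa2, Pold2 and Rrm1.

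**Figure D2:**
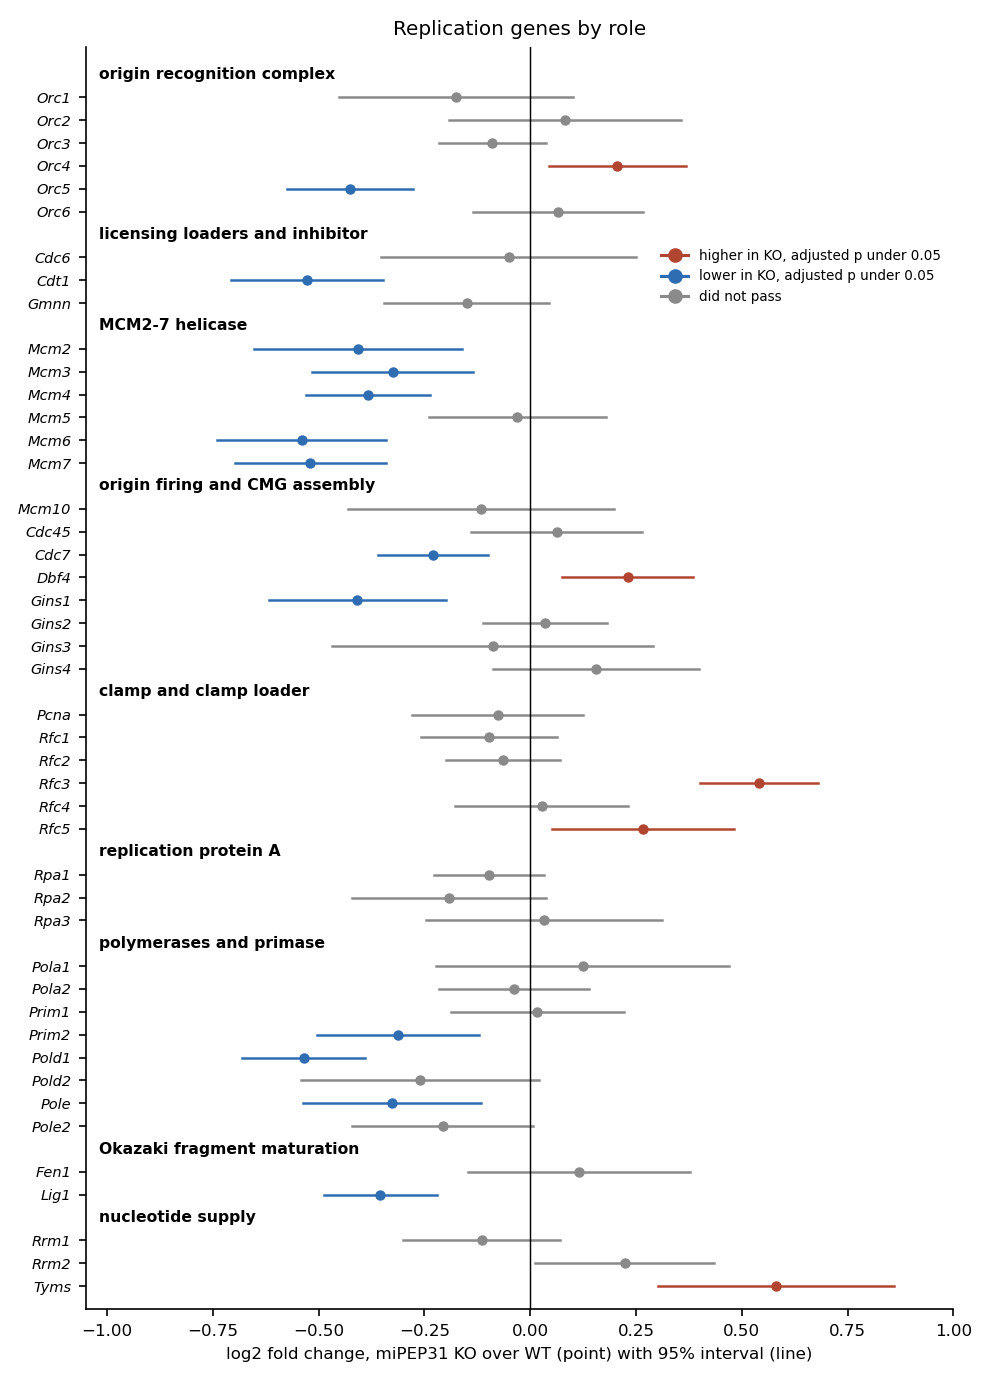
Log2 fold change of each member, miPEP31 KO over WT (points, x axis), with its 95% interval from the edgeR fit (lines), grouped by role. Red marks the 5 members higher in KO, blue the 13 lower in KO and grey the 27 that did not pass; 5 of the 6 MCM2-7 genes are blue and Mcm5 lies at -0.03.

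Most helicase genes were lower in KO. The MCM2-7 complex is a ring of related ATPase subunits that is loaded onto origins and later unwinds DNA ahead of the fork. Of its 6 genes 5 (83.3%) were lower in KO, where 22.2% of all rows were lower. The other, Mcm5, did not pass, and the median log2 fold change of the 6 genes was -0.40. Mcm6 (ENSMUSG00000026355, chromosome 1, 128331590 to 128359664, GRCm38) had 356, 335 and 288 CPM in the KO libraries, against 448, 473 and 500.4 CPM in the WT libraries. Every KO library was below every WT library, and the log2 fold change was -0.54 (SE 0.09, edgeR adjusted p = 0.00161), or 31.2% lower. Mcm7 had 259.9, 237 and 226 CPM in KO, against 321, 345 and 370.1 CPM in WT. The groups again did not overlap, with a log2 fold change of -0.52 and an SE of 0.08 (edgeR adjusted p = 0.0011). Exons of Mcm7 overlap those of Cops6 and Ap4m1 on the opposite strand. No source used here says whether the counting used strand, so reads from these overlaps cannot be told apart. Such overlaps with protein-coding genes were found for 11 of the 45 members: Orc2, Orc4, Orc6, Mcm7, Cdc45, Gins2, Rfc2, Rfc4, Rfc5, Fen1 and Lig1.

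Mcm4 had 256, 249.8 and 244 CPM in KO, against 304, 332 and 342 CPM in WT, a log2 fold change of -0.38 with an SE of 0.06 (edgeR adjusted p = 0.0018). Mcm2 had 236, 209 and 185 CPM in KO, against 248, 282 and 306 CPM in WT. The highest KO library of Mcm2 was close to the lowest WT library, and its log2 fold change of -0.41 with an SE of 0.11 (edgeR adjusted p = 0.0146) did not pass without WT replicate 2 (adjusted p = 0.0515) or without WT replicate 3 (adjusted p = 0.0598). Mcm3 had 346, 315 and 287 CPM in KO, against 372, 397 and 419.5 CPM in WT, with no overlap and a log2 fold change of -0.33 and an SE of 0.08 (edgeR adjusted p = 0.0127). That call was lost without WT replicate 3 (adjusted p = 0.0553).

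Mcm5 (ENSMUSG00000005410, chromosome 8, 75109569 to 75128439, GRCm38) was the subunit that did not pass. Its levels were 348, 307 and 282 CPM in KO, against 294, 324 and 339.8 CPM in WT, so that the KO range enclosed the WT range. The log2 fold change was -0.03 with a 95% interval of -0.24 to 0.18 (edgeR adjusted p = 0.806), whereas the interval of Mcm6 ran from -0.74 to -0.34. Per kilobase of exon, Mcm5 had 78.3 CPM in KO and 79.9 CPM in WT. Mcm6 had 69.8 CPM per kilobase in KO and 101.6 in WT. Mcm3, the highest subunit per kilobase in both genotypes, had 84.2 in KO and 105.5 in WT. Mcm2 was the least abundant per kilobase, at 30.2 CPM in KO and 40.1 in WT. In order of level per kilobase, then, Mcm5 stood below Mcm3 alone in KO, and below Mcm3, Mcm6 and Mcm4 in WT. The length used is that of all annotated exons of a gene joined, so this order depends on the annotation. By CPM without regard to length, Mcm6 was the highest subunit in both genotypes. Its means were 325.9 CPM in KO and 473.9 CPM in WT, against 316.0 and 395.9 CPM for Mcm3.

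**Figure D3:**
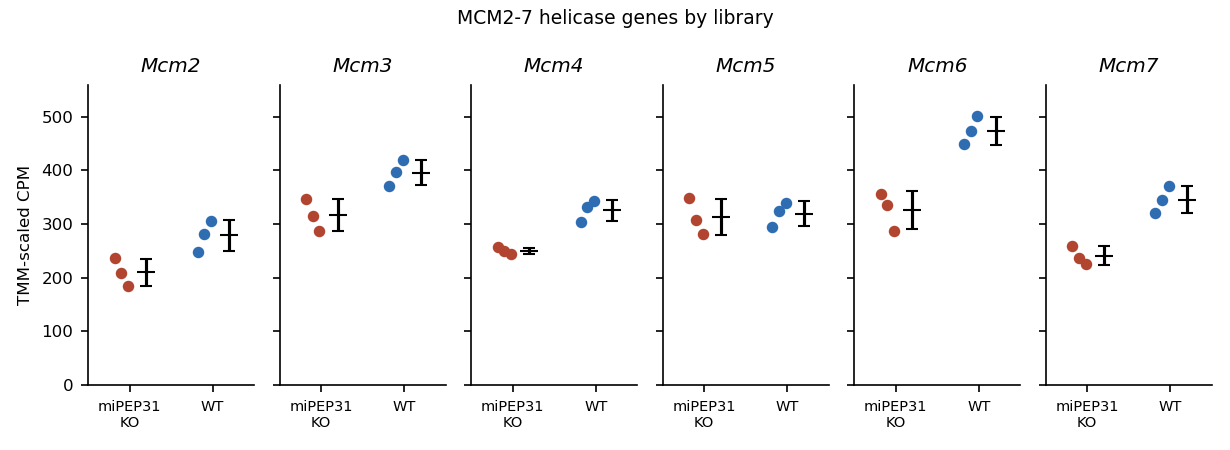
TMM-scaled CPM (y axis, from 0) of the 6 MCM2-7 genes in each miPEP31 KO library (red points) and each WT library (blue points), with the mean (horizontal line) and SD (bar, n = 3). The KO points lie below the WT points for every gene but Mcm5, whose KO libraries (282 to 348 CPM) and WT libraries (294 to 339.8 CPM) overlap.

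Promoter windows of Mcm5 and Mcm6 hold matches to the E2F motif and are shown because Mcm6 was called and Mcm5 was not. Capitals mark matches, on either strand, to the motif TTCCCGC or to its forms with other middle letters, which are TTGCCGC and also TTGGCGC and finally TTCGCGC, and the bases are those of RefSeq on GRCm38.p6, upstream of the annotated start site and outside annotated exons. The Mcm5 stretch is chr8:75109333-75109378 on the plus strand, from 176 to 131 bases before the start site, with 3 matches, 2 of which overlap. The Mcm6 stretch is chr1:128359730-128359826 on the minus strand, from 121 to 25 bases before the start site, with 4 matches in 2 pairs.
Mcm5: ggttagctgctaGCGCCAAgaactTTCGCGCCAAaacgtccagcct
Mcm6: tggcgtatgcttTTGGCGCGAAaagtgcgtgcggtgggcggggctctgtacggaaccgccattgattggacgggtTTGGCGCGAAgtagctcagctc
The Mcm6 stretch holds TTGGCGCGAA at both of its sites, and the Mcm5 stretch holds TTCGCGCCAA, the same letters read on the other strand. A match is a run of letters and not a measured binding site.

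The origin recognition complex, which binds origins and recruits the loaders, had few called genes. In KO, 1 of its 6 genes (16.7%) was higher and 1 (16.7%) was lower, where 25.1% of all rows were higher and 22.2% lower; the median over all 6 was -0.01 on the log2 scale. Orc5 (ENSMUSG00000029012, chromosome 5, 22486485 to 22550429, GRCm38) had 36.5, 33.8 and 36.4 CPM in the KO libraries, against 47.1, 49.1 and 47.2 CPM in the WT libraries. All KO libraries were lower, by 25.6% on average, a log2 fold change of -0.43 with an SE of 0.06 (edgeR adjusted p = 0.0012). Orc4 had 73.9, 71.4 and 65.2 CPM in KO, against 64.0, 59.8 and 58.7 CPM in WT. KO replicate 3 exceeded WT replicate 1 only narrowly. The log2 fold change was 0.21 with an SE of 0.07 (edgeR adjusted p = 0.0423). Its call was lost in 9 of 14 alternative settings, among them the removal of any 1 library other than KO replicate 3. Exons of Orc4 overlap those of Acvr2a and Mbd5 on the opposite strand.

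The other 4 subunits did not pass. Orc3 had 84.5, 84.1 and 84.4 CPM in KO, against 87.9, 92.9 and 88.4 CPM in WT, a log2 fold change of -0.09 with an SE of 0.05 (edgeR adjusted p = 0.215), although the groups did not overlap. Orc1, the subunit whose level is known to change through the cell cycle in mammalian cells, had 52.9, 48.5 and 39.9 CPM in KO, against 46.4, 56.7 and 56.5 CPM in WT. Its groups overlapped, with a log2 fold change of -0.17 and an interval of -0.45 to 0.10. Orc2 had a log2 fold change of 0.08 and Orc6 one of 0.06, and the groups of both overlapped.

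Of the licensing loaders, Cdt1 was lower in KO and Cdc6 was not called. Cdt1 (ENSMUSG00000006585, chromosome 8, 122568015 to 122573554, GRCm38) brings the MCM ring to the origin and is degraded or held by geminin once S phase begins. It had 79.1, 78.0 and 74.0 CPM in KO, against 100.1, 112 and 121 CPM in WT. The groups were well apart, with a log2 fold change of -0.53 and an SE of 0.08 (edgeR adjusted p = 0.00109), 30.6% lower. Cdc6, the ATPase that works with Cdt1, had 77.8, 65.8 and 53.0 CPM in KO, against 62.7, 68.5 and 72.5 CPM in WT. KO replicate 1 was the highest and KO replicate 3 the lowest of all 6 libraries, and the log2 fold change of -0.05 had an interval of -0.35 to 0.25. Gmnn had 51.5, 44.7 and 48.1 CPM in KO, against 50.4, 51.2 and 58.5 CPM in WT, a log2 fold change of -0.15 with an interval of -0.35 to 0.04 (edgeR adjusted p = 0.178).

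Taken as 1 group of 9, the origin recognition and loading genes had 1 member higher (11.1%), 2 lower (22.2%) and 6 not called. Of all rows, 25.1% were higher and 22.2% lower. The median log2 fold change of the 9 genes was -0.09. That median is the same as for all members, while the helicase genes lay at -0.40. No test was made of the difference between these roles.

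Of the 8 origin firing genes, 1 (12.5%) was higher in KO and 2 (25.0%) were lower, where 25.1% of all rows were higher and 22.2% lower. Cdc7 is the kinase and Dbf4 its activating subunit, and their calls had opposite signs. Cdc7 (ENSMUSG00000029283, chromosome 5, 106964322 to 106984432, GRCm38) had 63.9, 67.8 and 64.6 CPM in KO, against 76.5, 77.3 and 76.2 CPM in WT. It was lower in every KO library, with a log2 fold change of -0.23 and an SE of 0.06 (edgeR adjusted p = 0.0109). Dbf4 had 103, 97.1 and 89.8 CPM in KO, against 81.7, 81.7 and 84.1 CPM in WT. It was higher in every KO library, with a log2 fold change of 0.23 and an SE of 0.07 (edgeR adjusted p = 0.0226), and its call was lost without KO replicate 2 or without any 1 WT library (adjusted p = 0.0578 to 0.0871).

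The GINS complex, Gins1 to Gins4, joins MCM and Cdc45 in the active helicase. Gins1 was among the least abundant members, at 15.6, 14.3 and 14.3 CPM in KO, against 18.2, 20.1 and 20.3 CPM in WT. Every KO library was lower, with a log2 fold change of -0.41 and an SE of 0.09 (edgeR adjusted p = 0.00713). The other 3 subunits did not pass: Gins2 had a log2 fold change of 0.03, Gins3 one of -0.09 and Gins4 one of 0.16, each with overlapping groups. Gins3 was the least certain of them, with 15.7, 15.0 and 12.6 CPM in KO, against 12.4, 14.8 and 18.9 CPM in WT, and an interval of -0.47 to 0.29. Cdc45 had a log2 fold change of 0.06 with an interval of -0.14 to 0.27. Mcm10, which acts when the helicase is activated, had 92.5, 75.2 and 63.2 CPM in KO, against 74.0, 87.6 and 88.8 CPM in WT, and its interval of -0.43 to 0.20 was among the widest.

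The clamp loader held the member of the fork machinery that rose most. Replication factor C, the complex of Rfc1 to Rfc5, opens the PCNA ring and closes it around DNA. Rfc3 (ENSMUSG00000033970, chromosome 5, 151642756 to 151651242, GRCm38) had 62.9, 64.7 and 62.8 CPM in KO, against 43.5, 42.0 and 45.5 CPM in WT. The libraries of each genotype lay close together and far from the other genotype, with a log2 fold change of 0.54 and an SE of 0.06 (edgeR adjusted p = 0.000282), or 1.45-fold. Rfc5 had 93.0, 81.2 and 72.4 CPM in KO, against 65.1, 70.1 and 69.8 CPM in WT. Its log2 fold change of 0.27 with an SE of 0.09 (edgeR adjusted p = 0.0463) was 0.17 without KO replicate 1, and the call was lost in 9 of 14 alternative settings.

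The other subunits of the loader did not pass. Rfc1, the large subunit, had a log2 fold change of -0.10, Rfc2 one of -0.06 and Rfc4 one of 0.03, with overlapping groups in each. Exons of Rfc2, Rfc4 and Rfc5 overlap protein-coding genes on the opposite strand, while those of Rfc3 do not. Pcna itself, the clamp that holds polymerases on DNA, was the most abundant member, with 550.2, 457 and 443 CPM in KO, against 488, 527 and 514 CPM in WT. KO replicate 1 was above and KO replicates 2 and 3 below all WT libraries, with a log2 fold change of -0.08 and an interval of -0.28 to 0.13. Without KO replicate 1 it was -0.18 (edgeR adjusted p = 0.0273). The pseudogenes Pcna-ps2 and Pcna-ps1 had 2.19 and 0 counts over the 6 libraries; how the counting divided reads between them and Pcna was not tested.

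Replication protein A coats single-stranded DNA at the fork, and none of its 3 subunits passed, where 47.3% of all rows did. Rpa1 had 215, 216 and 202 CPM in KO, against 220.3, 227 and 229 CPM in WT. The groups did not overlap but lay close, with a log2 fold change of -0.10 and an SE of 0.06 (edgeR adjusted p = 0.189). Rpa2 had 56.7, 49.0 and 43.8 CPM in KO, against 55.1, 54.7 and 60.9 CPM in WT, a log2 fold change of -0.19 that was -0.30 without KO replicate 1 (edgeR adjusted p = 0.0132). Rpa3 had a log2 fold change of 0.03 with an interval of -0.25 to 0.31.

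Of the 8 polymerase and primase genes 3 (37.5%) were lower in KO and none higher, where 22.2% of all rows were lower and 25.1% higher. Among the polymerases, the catalytic subunits of both processive enzymes were lower in KO. Pold1 is the catalytic subunit of polymerase delta, which copies the lagging strand, and Pole that of polymerase epsilon, which copies the leading strand. Pold1 (ENSMUSG00000038644, chromosome 7, 44532746 to 44548849, GRCm38) had 159, 153 and 144 CPM in KO, against 216, 214 and 230.2 CPM in WT. The groups were far apart, with a log2 fold change of -0.54 and an SE of 0.06 (edgeR adjusted p = 0.000365), or 31.0% lower. Pole had 123, 119 and 96.7 CPM in KO, against 139.8, 140.4 and 144 CPM in WT. All KO libraries were lower, with a log2 fold change of -0.33 and an SE of 0.09 (edgeR adjusted p = 0.0194), but the call was lost without any 1 WT library (adjusted p = 0.0536 to 0.0651).

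The accessory subunits counted here did not pass. Pold2 had 79.0, 65.7 and 56.5 CPM in KO, against 72.8, 82.2 and 85.8 CPM in WT. KO replicate 1 lay within the WT range, and the log2 fold change of -0.26 (edgeR adjusted p = 0.115) was -0.40 without that library (adjusted p = 0.00725). Pole2 had 30.1, 27.4 and 30.9 CPM in KO, against 30.9, 33.5 and 37.6 CPM in WT, a log2 fold change of -0.21 with an interval of -0.42 to 0.01.

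Polymerase alpha and primase start each new strand with a short RNA-DNA primer. Of the 4 genes only Prim2, the large primase subunit, was called. It had 51.9, 47.9 and 42.6 CPM in KO, against 57.5, 61.7 and 57.7 CPM in WT, without overlap, and a log2 fold change of -0.31 and an SE of 0.08 (edgeR adjusted p = 0.0155). Without WT replicate 2 its call was lost (adjusted p = 0.0667). Prim1, the catalytic primase subunit, had a log2 fold change of 0.02 with an interval of -0.19 to 0.22. Pola1 had 116, 82.1 and 75.0 CPM in KO, against 78.0, 86.1 and 86.3 CPM in WT; KO replicate 1 stood far above all other libraries and the interval ran from -0.22 to 0.47. Pola2 had a log2 fold change of -0.04.

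Okazaki fragments are trimmed by the flap endonuclease Fen1 and sealed by the ligase Lig1. Lig1 had 196, 198 and 194 CPM in KO, against 239, 250.5 and 263 CPM in WT. The KO libraries agreed closely and all lay below WT, with a log2 fold change of -0.35 and an SE of 0.06 (edgeR adjusted p = 0.00173), 21.8% lower. Fen1 had 125, 98.9 and 96.4 CPM in KO, against 89.2, 99.4 and 107 CPM in WT. Its groups overlapped, with a log2 fold change of 0.11 and an interval of -0.15 to 0.38. Exons of both genes overlap protein-coding genes on the opposite strand.

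Of the nucleotide supply genes, Tyms was higher in KO and had the largest change of any member. Tyms (ENSMUSG00000025747, chromosome 5, 30058202 to 30073617, GRCm38) encodes thymidylate synthase, which makes dTMP from dUMP. It had 90.4, 70.9 and 66.5 CPM in KO, against 46.0, 52.4 and 53.8 CPM in WT. The lowest KO library was above the highest WT library, with a log2 fold change of 0.58 and an SE of 0.12 (edgeR adjusted p = 0.00539), or 1.50-fold, and the KO libraries were spread more widely than the WT libraries (75.9 ± 12.7 CPM in KO and 50.8 ± 4.16 CPM in WT, SD, n = 3 each).

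Ribonucleotide reductase, which turns ribonucleotides into deoxyribonucleotides, consists of a large subunit encoded by Rrm1 and a small subunit encoded by Rrm2 in cycling cells. Rrm2 had 271.4, 246.9 and 224.8 CPM in KO, against 190.5, 220.8 and 225.3 CPM in WT. KO replicate 3 lay just under WT replicate 3, and the log2 fold change of 0.22 (SE 0.09) did not pass (edgeR adjusted p = 0.0779), although it did without KO replicate 3 (adjusted p = 0.0225). Rrm1 had 392, 344 and 323 CPM in KO, against 365.0, 382 and 401 CPM in WT, a log2 fold change of -0.11 with an interval of -0.30 to 0.07. Leaving out KO replicate 1 gave -0.20 (edgeR adjusted p = 0.0264).

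Ratios between partners within a library also separated the genotypes. These ratios were chosen after the levels had been seen, carry no test, and are of CPM without regard to gene length, so they are read between genotypes only. Mcm5 over the mean of the other 5 MCM2-7 genes was 1.20, 1.14 and 1.15 in the KO libraries, against 0.868, 0.886 and 0.877 in the WT libraries. KO replicate 1, which was high in most members, did not stand far from the other KO libraries in that ratio. Cdt1 over Gmnn was 1.53, 1.75 and 1.54 in KO, against 1.99, 2.19 and 2.06 in WT. Cdc7 over Dbf4 was 0.618, 0.698 and 0.719 in KO, against 0.936, 0.947 and 0.907 in WT. In both ratios every KO library was below every WT library.

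Rrm2 over Rrm1 was 0.693, 0.717 and 0.695 in KO, against 0.522, 0.579 and 0.562 in WT, so the ratio of the reductase subunits did not overlap between the genotypes while neither gene passed alone. Tyms over Tk1, the thymidine kinase that makes dTMP by salvage, was 1.21, 0.988 and 0.901 in KO, against 0.517, 0.549 and 0.560 in WT. Fen1 over Lig1 was 0.638, 0.4995 and 0.497 in KO, against 0.373, 0.397 and 0.409 in WT. Pold1 over Pola1 was 1.37, 1.86 and 1.92 in KO, against 2.77, 2.48 and 2.67 in WT, with KO replicate 1 the lowest library.

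**Figure D4:**
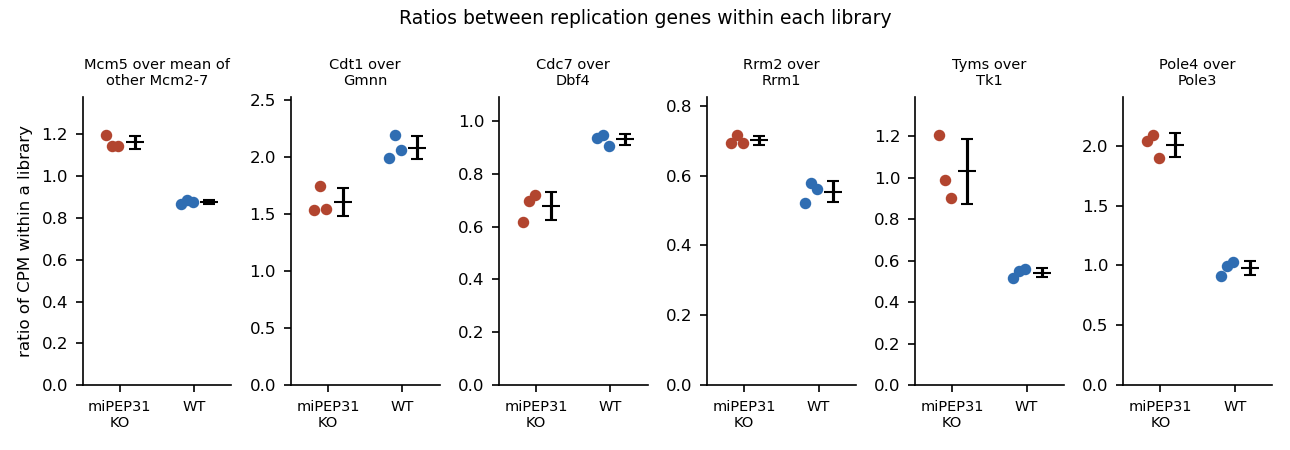
Ratio of CPM between named replication genes within each library (y axis, from 0, with its own scale in each panel), for miPEP31 KO libraries (red points) and WT libraries (blue points), with the mean and SD (n = 3). The points of the genotypes do not overlap in any of the 6 panels; Mcm5 over the other MCM2-7 genes is 1.14 to 1.20 in KO and 0.868 to 0.886 in WT, and Pole4 over Pole3 is 1.90 to 2.09 in KO and 0.911 to 1.03 in WT.

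Genes that work beside the members were read from 7 further lists. Of 22 other fork and helicase partners, 3 (13.6%) were higher in KO and 7 (31.8%) lower, with a median log2 fold change of -0.08. Of all rows, 25.1% were higher and 22.2% lower. Accessory subunits of both processive polymerases were among the called genes, in opposite directions. Pold4, a small subunit of polymerase delta, had 26.9, 35.8 and 44.2 CPM in KO, against 82.8, 75.1 and 71.8 CPM in WT, a log2 fold change of -1.10 with an SE of 0.16 (edgeR adjusted p = 0.000958). Pole4, a histone-fold subunit of polymerase epsilon, had 81.7, 69.9 and 61.6 CPM in KO, against 32.8, 37.1 and 37.2 CPM in WT, a log2 fold change of 0.99 with an SE of 0.11 (edgeR adjusted p = 0.000268). Its partner Pole3 did not pass, and Pole4 over Pole3 was 2.04, 2.09 and 1.90 in KO, against 0.911, 0.998 and 1.03 in WT. These 2 changes were larger than any among the members. Topbp1, which helps to bring Cdc45 to the helicase, had a log2 fold change of -0.47 (edgeR adjusted p = 0.00149).

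In the list of licensing control and the CRL4-Cdt2 ubiquitin ligase, which marks Cdt1 for degradation in S phase, 2 of 14 (14.3%) were higher. Lower in KO were 6 (42.9%), and the median over the list was -0.12. Of all rows, 25.1% were higher and 22.2% lower. The ligase subunits Ddb1 and Cul4a were lower, with log2 fold changes of -0.44 and -0.31 (edgeR adjusted p = 0.000328 and 0.00235). Ccne1, which encodes cyclin E1 of the G1 to S transition, had 85.9, 79.7 and 74.3 CPM in KO, against 41.8, 46.3 and 51.6 CPM in WT, a log2 fold change of 0.78 with an SE of 0.09 (edgeR adjusted p = 0.000367). Of 5 genes for alternative clamp loaders and clamp removal, 1 was higher and none lower: Rad17, which loads the checkpoint clamp, at 0.45 (edgeR adjusted p = 0.0118). Of 9 checkpoint genes, 1 (11.1%) was higher and 2 (22.2%) lower. Cdc25b, a phosphatase that activates cyclin-dependent kinases, had 53.4, 56.4 and 61.1 CPM in KO, against 106.5, 116 and 123 CPM in WT, a log2 fold change of -1.01 with an SE of 0.08 (edgeR adjusted p = 5.5e-05). Rad9a, which encodes a subunit of the checkpoint clamp, was the gene that was higher, at 0.36 (edgeR adjusted p = 0.00951). Atr, the kinase that responds to stalled forks, had 70.5, 62.5 and 62.6 CPM in KO, against 135, 135 and 120.1 CPM in WT. Its means were 65.2 ± 4.61 CPM in KO and 130.3 ± 8.78 CPM in WT (SD, n = 3 each), and it passed (edgeR adjusted p = 5.58e-05).

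Most of the other nucleotide synthesis genes that passed were lower: 11 of 24 (45.8%), against 2 higher (8.33%), with a median log2 fold change of -0.25. Of all rows, 22.2% were lower and 25.1% higher. Paics and Impdh2, of purine synthesis, had log2 fold changes of -0.75 and -0.52 (edgeR adjusted p = 9.09e-05 and 0.000418). Dut, which makes the dUMP that thymidylate synthase uses, was at -0.32 and Tk1 at -0.35 (edgeR adjusted p = 0.0159 and 0.00206), both opposite in sign to Tyms; the call of Dut was lost without KO replicate 2, WT replicate 2 or WT replicate 3 (adjusted p = 0.0541 to 0.0608). Rrm2b, the small reductase subunit known from p53 responses and from resting cells, had 28.5, 26.7 and 27.7 CPM in KO, against 16.2, 16.7 and 15.8 CPM in WT, a log2 fold change of 0.77 with an SE of 0.08 (edgeR adjusted p = 0.000163). Samhd1, which breaks down deoxynucleotides, was at -0.26 (edgeR adjusted p = 0.0118), a call lost without KO replicate 2 or WT replicate 2 (adjusted p = 0.0514 and 0.0566).

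Of 8 genes of chromatin assembly at the fork, 1 (12.5%) was higher and 2 (25.0%) lower, where 25.1% of all rows were higher and 22.2% lower. The histone chaperone gene Asf1a was at 0.66, and Uhrf1 and Dnmt1, which keep DNA methylation on new strands, were at -0.34 and -0.33 (edgeR adjusted p = 0.00799, 0.0168 and 0.00562). The call of Uhrf1 was lost without WT replicate 2 or WT replicate 3 (adjusted p = 0.0512 and 0.0665). Among 20 mitosis genes, 15 (75.0%) were lower in KO and none higher, with a median log2 fold change of -0.35. The kinase genes Ttk and Aurkb were at -1.10 and -0.60 and the centromeric histone gene Cenpa at -0.70 (edgeR adjusted p = 1.65e-05, 0.000175 and 0.000215). Mki67, which encodes the proliferation marker Ki-67, had 734, 647 and 563 CPM in KO, against 861, 954 and 935 CPM in WT, a log2 fold change of -0.50 with an SE of 0.10 (edgeR adjusted p = 0.00385). Its order among the KO libraries was that of most members, with KO replicate 1 highest and KO replicate 3 lowest. The part of a different share of cycling cells in the members' levels was not tested.

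**Figure D5:**
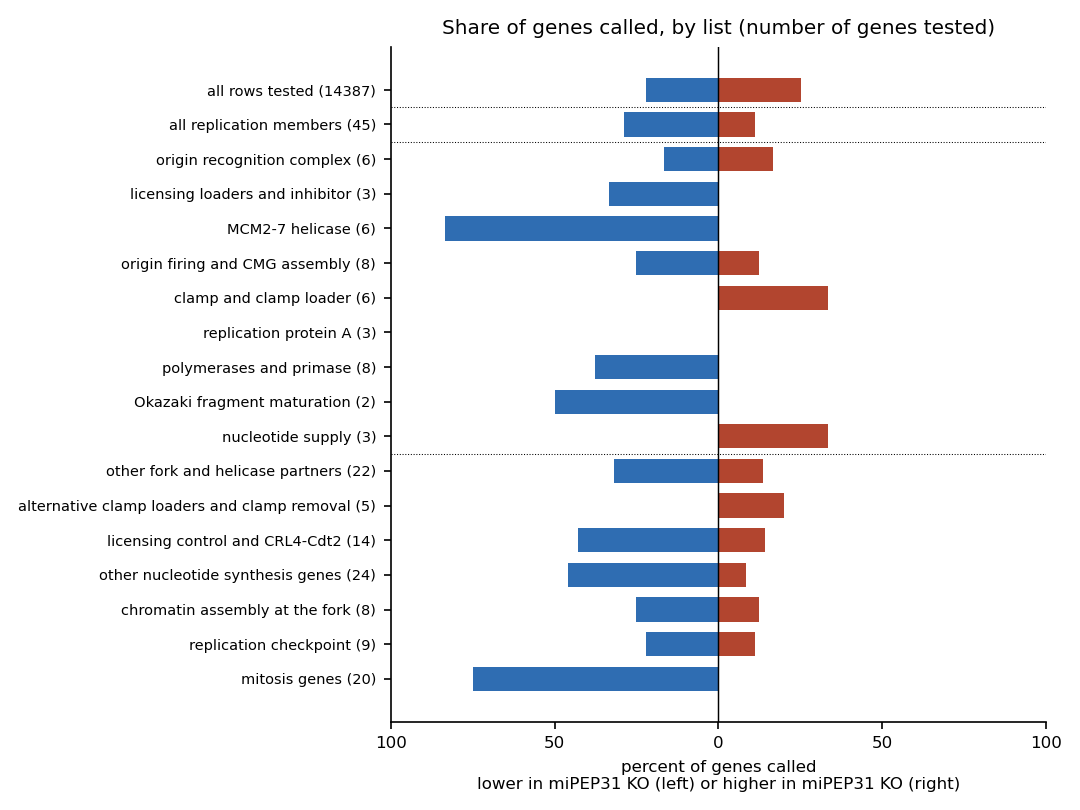
Percent of genes called lower in miPEP31 KO (blue, to the left of 0) and higher in miPEP31 KO (red, to the right), for all rows tested, for the 45 members, for each role and for 7 lists of neighbouring genes, with the number of genes tested in brackets. The MCM2-7 genes (5 of 6) and the mitosis genes (15 of 20) have the longest blue bars, where 22.2% of all rows were lower.

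Many members, but not all, carried the letters of the E2F motif in their promoter windows. The members were chosen by symbol, but many of these genes are known E2F targets, so the choice and the motif are not independent. RefSeq windows from 250 bases before to 50 bases after an annotated start site were matched by symbol to 37 of the 45 members, and Mcm4, Gmnn, Gins1, Gins2, Gins4, Rfc2, Prim2 and Pole had no window. At least 1 of the 4 E2F motifs given above stood in the windows of 24 of the 37 members (64.9%), against 10.9% of 27025 genes with a window and 19.3% of the 10013 tested genes with one. The median GC content was 61.3% in the members' windows, 60.7% in those of tested genes and 52.7% in all. The letters CCAAT, on either strand, were found in 62.2% of the members and in 41.1% of all genes; CCAAT can overlap an E2F match that ends in CCAA. The letters TTTGAA, the CHR element of mitotic promoters, were found in 18.9% of the members and in 20.2% of all genes. For CCAAT and TTTGAA the share among tested genes was not computed.

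The E2F letters stood with both directions and with no call: they were found in 2 of 5 members higher in KO, in 7 of 9 lower and in 15 of 23 that did not pass. Over all tested genes the median log2 fold change was 0.003 with a match and 0.04 without. Further stretches are given for Orc4 and Cdc7, which were called in opposite directions, each with 1 match in the stretch shown. Orc4 has 3 annotated windows, and its stretch comes from the start site furthest inside the gene. The other Orc4 windows hold no match. Cdc7 has 2 windows, both with matches, and its stretch comes from the downstream start site. Stretches are also given for the reductase pair Rrm1 and Rrm2, which did not pass. Capitals again mark the E2F letters. They lie at chr2:48949389-48949419 on the minus strand for Orc4, chr5:106964514-106964544 on the plus strand for Cdc7, chr7:102441616-102441646 on the plus strand for Rrm1 and chr12:24708007-24708037 on the plus strand for Rrm2, all on GRCm38.p6.
Orc4: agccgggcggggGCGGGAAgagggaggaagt
Cdc7: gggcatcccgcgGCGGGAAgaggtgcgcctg
Rrm1: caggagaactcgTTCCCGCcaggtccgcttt
Rrm2: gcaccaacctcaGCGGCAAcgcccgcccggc
The Orc4 and Cdc7 stretches carry the same letters, GCGGGAA. Rrm1 carries their reverse complement, and Rrm2 carries the GCGGCAA form. Among the called members, no match was found in the windows of Tyms, Rfc5, Dbf4, Orc5 and Mcm2. Among those that did not pass, none was found for Pcna, Cdc45, Mcm10, Orc2, Orc6, Pola2, Pold2 and Rpa1.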

How the data were processed

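Trizol extraction and TruSeq library preparation are stated in the labels' protocols. Bowtie 0.12.2 and the build mm8 appear in the submitters' processing notes with no role given. No source used here names the counting program, its annotation or its strand setting. The authors deposited estimated counts per gene for 6 libraries, in which 72.2% of values above 0 were exactly whole, with no tolerance. All values were rounded to whole numbers. Of 52856 rows, 51912 carried Ensembl IDs and 944 had IDs starting with MSTRG, which held 0.903% to 1.56% of a library's counts and stayed in the tests. Gene names and coordinates came from GENCODE M21 (GRCm38) by ID, with 51633 IDs named. A second deposited table, of 30 genes, was not used here.

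Library totals ranged from 22865487 to 26295776 counts. Low rows were removed by filterByExpr (edgeR 4.0.16, minimum count 10). The rest were scaled by TMM (trimmed mean of M-values), and compared as miPEP31 KO against WT by the quasi-likelihood test of edgeR (robust, with no covariate). P-values were adjusted over all 14387 rows by the Benjamini-Hochberg method, with a threshold of 0.05. SEs come from the unshrunk log2 fold changes and the F statistics, and 95% intervals use the t distribution of the fit. CPM values are counts over TMM-scaled library sizes. Replicate libraries differed beyond sampling noise (chi-square per row 5.00 to 39.4). Alternatives were DESeq2 1.42.0, limma-voom (limma 3.58.1), other scalings and filters, unrounded counts, a replicate block and each library left out, in R 4.3.3. The code was tested on simulated data.

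All members are named; from each of the 7 neighbouring lists the text gives up to 3 genes with the smallest p among those past the threshold, and Samhd1, Rrm2b, Dut, Tk1 and Mki67 whatever their test. The members, lists and rules were chosen with earlier results of these data known, so counts over them are descriptions.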

Additional observations from a re-analysis of the deposited data

How the results depend on the processing

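The 13 members lower in KO numbered 10 to 17 when 1 library was left out and 13 under every other setting run. The 5 members higher in KO were less stable: 3 with DESeq2, 3 with upper-quartile scaling, 2 with the replicate block, and 2 to 6 when 1 library was left out. Under the same library removals the count of all rows past the threshold ran from 5142 to 7233, and the members' median log2 fold change from -0.16 to -0.06. Over all 14 alternatives 11 of the 18 called members kept their call, no called member changed sign, and the others (Orc4, Dbf4, Rfc5, Mcm2, Mcm3, Prim2 and Pole) lost it under at least 1; the cause was not tested. The replicate numbers do not say whether samples were paired. Deviations of same-numbered libraries from their group means had correlations of 0.00103, -0.00718 and -0.0156 over all rows. Such values show no shared deviation, but they cannot show that the samples were unpaired. With the replicate block 5736 rows passed, and 13 members were lower and 2 higher. Orc4, Dbf4 and Rfc5 were then not called (edgeR adjusted p = 0.0636, 0.0623 and 0.0918). The median log2 fold change of all rows lay between -0.04 and 0.06 under every setting. With 3 libraries a group, the intervals of members that did not pass differed in width. That of Orc3 ran from -0.22 to 0.04 and that of Gins3 from -0.47 to 0.29. A missed threshold does not show equal levels.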
